A study of Mus musculus with 18 samples.

Results

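The differential m6A peaks described here lay in exons or introns of noncoding transcripts in the uterus of pregnant mice. They were taken from the authors' deposited lists of peaks that differed between treatments. A peak was included when it was annotated to an exon or intron of a RefSeq transcript whose identifier begins with NR_ (a curated noncoding RNA) or XR_ (a predicted noncoding RNA). This gave 3499 of 40929 peaks, in 1747 host genes. Of these peaks, 2135 lay in 1120 long noncoding RNA (lncRNA) genes, 1094 in noncoding isoforms of 493 protein-coding genes, 206 in transcribed pseudogenes and 64 in other RNAs. A further 971 exon or intron peaks carried no transcript identifier and were not included. The host gene is the gene named with the transcript, and it was also the gene assigned by nearest start site for 65.2% of the peaks.

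Uterine RNA came from wild-type female ICR mice of 8 weeks on day 5 of pregnancy, when embryos attach. The mice were injected with vehicle (Veh, 0.9% saline, daily on days 1 to 4), with LPS (0.5 mg/kg, on days 3 and 4) or with melatonin and LPS (Mel+LPS: melatonin at 10 mg/kg on days 1 to 4, with LPS 30 min later on days 3 and 4). By the methods, melatonin was dissolved in saline with ethanol, and melatonin or vehicle was given daily on days 1 to 4. Whether the LPS mice received vehicle with ethanol is not stated there. LPS is a bacterial cell wall component used to provoke inflammation, and melatonin is the pineal hormone whose effect on this challenge the study examined. Each treatment had 3 input and 3 m6A-immunoprecipitated libraries, 18 in all. No gene was modified in any group, and whole uterine tissue was used, so fewer cells of a type and less RNA per cell cannot be told apart.

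The lists compare LPS with Veh and Mel+LPS with LPS. Peaks higher in LPS than in Veh are called LPS-up, and lower ones LPS-down. Peaks higher in Mel+LPS than in LPS are called Mel-up, and lower ones Mel-down. Noncoding transcripts held 1201 of 12023 LPS-up, 503 of 6259 LPS-down, 764 of 13436 Mel-up and 1031 of 9211 Mel-down peaks. LPS-down peaks were analysed on chromosomes 1 to 9 only, so the lack of an LPS-down peak elsewhere carries no information. Each peak has 1 score, the log10 likelihood ratio of the 2 treatments in the authors' deposited tables, with no value per replicate. The lowest scores were 1.04 (LPS-up), 1.01 (LPS-down), 1.01 (Mel-up) and 1.03 (Mel-down), so scores near 1 lie at the floor of the lists. The lower quartiles were 1.69, 1.60, 1.56 and 1.65. No test of a peak was therefore possible, the depth is unknown, and intervals below are Wilson or Newcombe 95% intervals that cover counting error only. Peaks of 1 gene share their reads and are not replicates. Both comparisons used the same LPS libraries, so LPS-up and Mel-down values at a site are not independent, nor are LPS-down and Mel-up values. Of 13 uterine genes 11 held a differential peak of any kind, and Hoxa10 and Wnt7a held none. Of 21896 protein-coding genes of RefSeq 11317 (51.7%) held one, so the presence of such a peak does not identify the tissue. The lists hold peaks and no expression levels.

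N6-methyladenosine is deposited on nascent RNA by the METTL3 and METTL14 complex, mostly at the motif DRACH, in which the first letter stands for any base but C, the next for a purine and the last for any base but G. It is removed by FTO and ALKBH5 and bound by YTH proteins. In messenger RNA it is known to lie mainly in long exons and near stop codons. Long noncoding RNAs such as Xist, Malat1 and Neat1 also carry it. Xist silences the inactive X chromosome, Airn and Kcnq1ot1 silence neighbouring imprinted genes in cis, Malat1 lies in nuclear speckles and Neat1 builds paraspeckles.

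The following peak sequences are shown 5′ to 3′ on the strand of the host gene, with each DRACH motif in capitals. They were read from GENCODE M21 transcripts on GRCm38, the build of the peak positions (mm10). Morrbid, Gm30075 and Gm7931 are among the highest-scoring peaks or pairs of peaks. Snhg11, Kcnq1ot1, Miat and Xist are lncRNAs of known names whose peaks are described below.
Morrbid, LPS-down, chr2:128317368-128317567, minus strand: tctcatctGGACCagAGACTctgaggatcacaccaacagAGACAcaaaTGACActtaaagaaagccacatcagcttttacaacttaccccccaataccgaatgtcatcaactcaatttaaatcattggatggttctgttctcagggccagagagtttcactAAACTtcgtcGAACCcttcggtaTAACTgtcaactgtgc
Snhg11, LPS-down, chr2:158385298-158385581, plus strand: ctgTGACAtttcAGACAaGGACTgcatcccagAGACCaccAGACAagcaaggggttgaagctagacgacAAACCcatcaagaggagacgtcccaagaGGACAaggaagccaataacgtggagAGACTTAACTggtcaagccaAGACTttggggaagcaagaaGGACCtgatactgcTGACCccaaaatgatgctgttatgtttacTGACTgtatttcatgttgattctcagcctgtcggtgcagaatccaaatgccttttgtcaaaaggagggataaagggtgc
Gm30075, LPS-up and Mel-down, chr7:73203220-73203414, minus strand: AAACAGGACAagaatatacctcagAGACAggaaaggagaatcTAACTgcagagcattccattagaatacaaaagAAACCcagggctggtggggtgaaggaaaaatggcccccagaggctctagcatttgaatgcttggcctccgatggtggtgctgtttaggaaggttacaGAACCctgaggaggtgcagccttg
Gm7931, Mel-up, chr5:46414355-46414483, plus strand: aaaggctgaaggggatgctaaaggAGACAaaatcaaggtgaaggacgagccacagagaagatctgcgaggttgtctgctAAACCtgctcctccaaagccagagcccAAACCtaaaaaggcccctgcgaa
Kcnq1ot1, LPS-up and Mel-down, chr7:143242582-143242768, minus strand: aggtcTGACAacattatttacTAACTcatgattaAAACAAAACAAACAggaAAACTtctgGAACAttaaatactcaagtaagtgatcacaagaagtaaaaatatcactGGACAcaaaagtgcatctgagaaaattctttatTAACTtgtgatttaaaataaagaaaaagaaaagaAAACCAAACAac
Miat, Mel-up, chr5:112214722-112214875, minus strand: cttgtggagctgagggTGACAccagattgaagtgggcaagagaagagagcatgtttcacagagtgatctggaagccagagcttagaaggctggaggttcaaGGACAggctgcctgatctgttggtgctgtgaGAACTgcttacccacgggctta
Xist, Mel-up, chrX:103462025-103462144, minus strand: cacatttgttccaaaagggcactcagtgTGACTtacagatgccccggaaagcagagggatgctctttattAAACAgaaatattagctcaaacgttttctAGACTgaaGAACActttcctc

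The Morrbid sequence of 200 bases held 7 DRACH motifs and the Snhg11 sequence of 284 bases held 13. The Gm30075 sequence of 195 bases held 6, the Gm7931 sequence of 129 bases held 3 and the Kcnq1ot1 sequence of 187 bases held 11. Miat held 3 motifs in 154 bases and Xist held 4 in 120. The Gm30075 peak was annotated as intronic in the RefSeq model and lay in an exon of the GENCODE transcript. A motif match is a description of the letters and does not place a methylated base.

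Noncoding transcripts took a different share of the exon and intron peaks in each list. They held 18.8% (17.9 to 19.8) of LPS-up and 15.1% (13.9 to 16.4) of LPS-down peaks. They held 9.28% (8.68 to 9.93) of Mel-up and 24.0% (22.8 to 25.3) of Mel-down peaks. Over all peaks of a list, lncRNA genes held 6.30% of LPS-up, 5.14% of LPS-down, 2.37% of Mel-up and 7.99% of Mel-down peaks. The intervals of Mel-up and Mel-down lay far apart, and those of LPS-up and LPS-down did not overlap, though the latter lists cover different chromosomes.

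**Figure D1:**
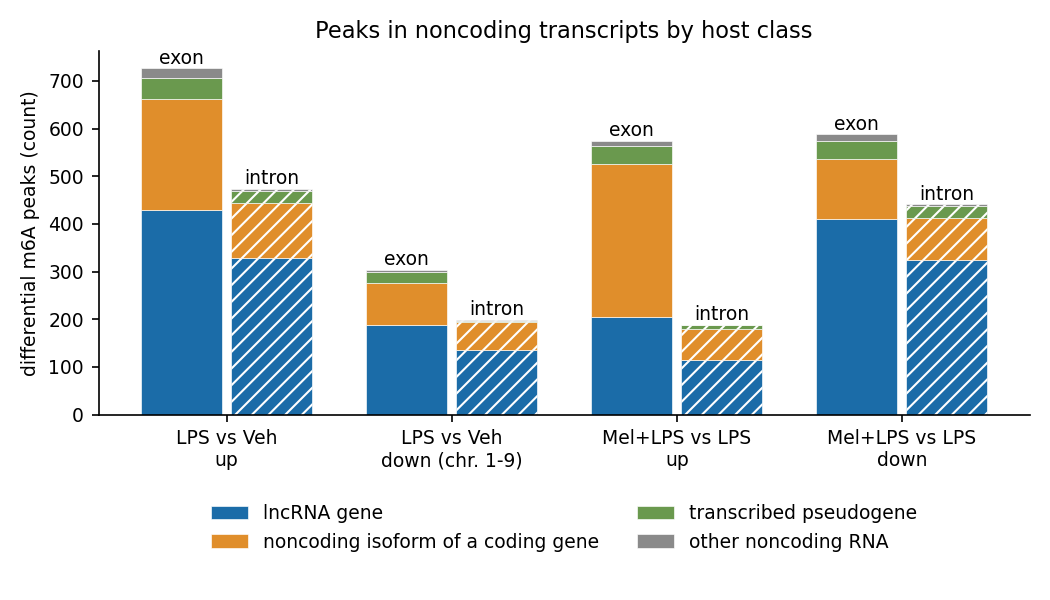
Number of peaks in noncoding transcripts in each list, by host class, with exon peaks as plain and intron peaks as hatched bars. LPS-up peaks are from all chromosomes and LPS-down peaks from chromosomes 1 to 9. Peaks in lncRNA genes number 758 (LPS-up), 322 (LPS-down), 319 (Mel-up) and 736 (Mel-down).

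The Mel+LPS against LPS comparison had mostly down peaks in lncRNAs, where coding transcripts had mostly up peaks in exons. Of all peaks in this comparison 59.3% were up. Intergenic peaks were also mostly down (594 Mel-up and 1576 Mel-down), so the lean was not particular to lncRNAs. In lncRNA exons 33.2% (29.6 to 37.0) were up (204 up and 411 down), and in lncRNA introns 26.1% (22.3 to 30.4) were up (115 up and 325 down). In coding transcripts 78.7% (77.7 to 79.6) of exon peaks and 46.0% (44.2 to 47.7) of intron peaks were up. The difference of lncRNA from coding transcripts was −45.5 percentage points (−49.2 to −41.6) in exons and −19.8 points (−24.1 to −15.2) in introns. Coding exon peaks here leave out peaks annotated as 3′UTR, which were more evenly split (2573 Mel-up and 2062 Mel-down). The exon difference would therefore be smaller with 3′UTR peaks counted, and was not computed that way. Both coding exon peaks and 3′UTR peaks were more often up than down, unlike lncRNA exon peaks. Exon peaks of noncoding isoforms of coding genes were up in 72.0%, nearer to the coding value. Of these isoform exon peaks on chromosomes, over all 4 lists, 676 of 758 (89.2%) also lay on an exon of a coding transcript of the same gene, so the isoform that carried the mark cannot be told apart. Pseudogene exon peaks were up in 50.6% (39.7 to 61.5) of 77.

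The lower up share of lncRNAs was seen on each autosome and on the X chromosome, from 20.8% on chromosome 1 to 46.7% on chromosome 18, beside 65.5% to 72.7% for coding transcripts. The Y chromosome had 2 lncRNA peaks in this comparison, of which 1 was up, and no coding peak. It was 30.5% for curated and 30.0% for predicted lncRNA transcripts. The peaks have no strand, and a peak in a lncRNA that overlaps a gene on the other strand may come from either. In Mel+LPS against LPS, lncRNA exon peaks outside coding genes were up in 29.5% of 437, those inside a coding gene in 42.0% of 169, and those on a coding exon in 68.2% (53.4 to 80.0) of 44. At a score of at least 6 the exon values were 40.6% for lncRNA and 77.0% for coding transcripts. At that score the intron values were 40.2% and 45.2%, a difference of −4.94 points (−15.2 to 5.98), so the intron difference was not detectable among high-scoring peaks. At a score of at least 10 lncRNA exon peaks were up in 38.9% of 18 and coding exon peaks in 85.5% of 186, and the intron values were 54.5% of 22 and 49.6% of 117, a difference of 4.97 points (−16.8 to 25.5). Down peaks also prevailed in lncRNAs when counted by host. Among 166 lncRNA hosts with at least 2 peaks in this comparison, 25 had only up peaks, 78 only down peaks and 63 both. Among 2488 coding hosts these numbers were 1179, 249 and 1060.

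LPS against Veh, compared on chromosomes 1 to 9, leaned weakly the other way. Of all peaks there 49.8% were up. Of lncRNA exon peaks 54.5% (49.7 to 59.3) were up (224 up and 187 down), and of lncRNA intron peaks 55.6% (169 up and 135 down). Coding transcripts had 48.3% and 48.8%. Over exons and introns the lncRNA share was 55.0%, which was 6.52 points (2.63 to 10.4) above coding transcripts. By place, lncRNA exon peaks outside coding genes were up in 58.1% (51.9 to 64.0) of 253. Those inside a coding gene were up in 48.7% (41.1 to 56.5) of 158, and those on a coding exon in 40.5% (26.3 to 56.5) of 37. Isoform exon peaks were up in 60.4% (53.9 to 66.6). Among 112 lncRNA hosts with at least 2 peaks, 38 had only up peaks, 20 only down peaks and 54 both.

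**Figure D2:**
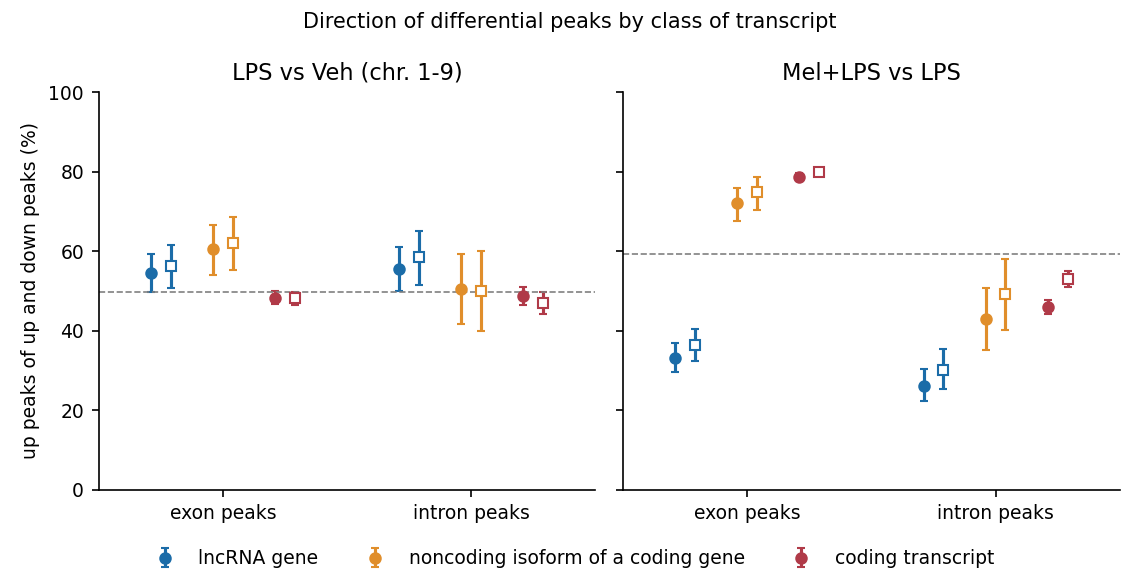
Share of up peaks among up and down peaks (percent, Wilson 95% intervals) by host class for LPS against Veh on chromosomes 1 to 9 and Mel+LPS against LPS. Filled points are all peaks, open squares leave out the 3 most frequent scores of each list, and the dashed line marks all peaks (49.8% and 59.3%). In Mel+LPS against LPS, lncRNA exons sit at 33.2% and coding exons, without 3′UTR peaks, at 78.7%.

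Scores of lncRNA peaks gathered at 1 repeated value in each list, as those of intron and intergenic peaks did. The most frequent score was 3.78 in LPS-up (1450 peaks, 12.1% of the list), 3.63 in LPS-down (734, 11.7%), 5.42 in Mel-up (479, 3.57%) and 3.85 in Mel-down (1370, 14.9%). Of lncRNA exon peaks, 15.4% of LPS-up, 24.1% of LPS-down, 7.84% of Mel-up and 15.8% of Mel-down peaks had it. Coding exon peaks had it in 4.03%, 3.64%, 1.75% and 7.67%. In introns the lncRNA shares were 29.8%, 36.3%, 17.4% and 30.8%, beside 27.4%, 25.5%, 9.25% and 28.5% in coding transcripts. Intergenic peaks had it in 23.5%, 28.8%, 15.3% and 23.5%. The median score of lncRNA peaks equalled the repeated value in 3 lists and was 4.04 in Mel-up. The repeated value was higher in Mel-up than in the other lists. Without the 3 most frequent scores of each list, the up share in Mel+LPS against LPS was 36.3% for lncRNA exons and 80.0% for coding exons, and 30.1% and 53.0% for introns.

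**Figure D3:**
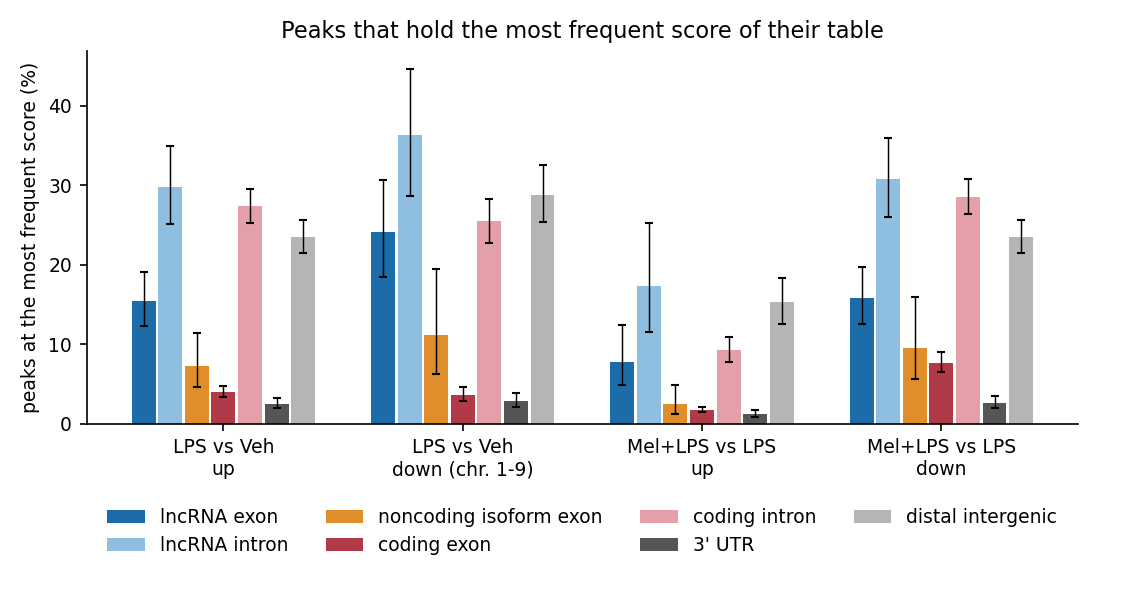
Share of peaks (percent, Wilson 95% intervals) that carry the most frequent score of their list, by list and by kind of peak. The highest lncRNA share is 36.3%, in LPS-down introns, and 3′UTR peaks lie between 1.20% and 2.84%.

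High scores were more frequent among noncoding peaks than among coding exon peaks, but their shares lay below those of intergenic peaks in each list and below those of coding intron peaks in all but LPS-down. A score of at least 6 was reached by 219 LPS-up peaks in noncoding transcripts (18.2%, beside 14.8% of all LPS-up peaks) and by 73 LPS-down peaks (14.5%, beside 12.7%). It was reached by 153 Mel-up peaks (20.0%, beside 11.7%) and by 177 Mel-down peaks (17.2%, beside 14.2%). For lncRNAs alone the shares were 19.4%, 15.5%, 28.5% and 18.2%. In coding exons they were 11.2%, 11.7%, 9.58% and 10.6%, in coding introns 19.8%, 13.9%, 20.6% and 21.2%, and in intergenic peaks 21.4%, 15.7%, 25.1% and 18.3%. The LPS-down share of all noncoding peaks was near its background. A score of at least 10 was reached by 3.50% of LPS-up, 3.98% of LPS-down, 4.84% of Mel-up and 2.72% of Mel-down noncoding peaks, beside 3.59%, 4.19%, 2.84% and 2.31% of all peaks.

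Within lncRNAs, exon peaks lay mostly in the last exon. In transcripts of at least 2 exons, 70.1% of LPS-up, 74.0% of LPS-down, 68.5% of Mel-up and 76.5% of Mel-down exon peaks were in the last exon. If every exon of these transcripts were hit equally, 32.9% to 35.5% would be. On the transcripts that could be placed in GENCODE, the last exon held 84.4% to 90.4% of the peaks and 68.4% to 71.9% of the transcript length on average. Over all noncoding transcripts the last exon held 343 of 686 LPS-up exon peaks, 53.9% of LPS-down, 30.3% of Mel-up and 62.8% of Mel-down exon peaks. Noncoding isoforms of coding genes had 10.7%, 11.2%, 5.30% and 14.4% of their exon peaks in the last exon. Coding transcripts had 24.8%, 12.9%, 13.8% and 24.1%, but most peaks in their last exons are annotated as 3′UTR and are not counted among exon peaks.

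**Figure D4:**
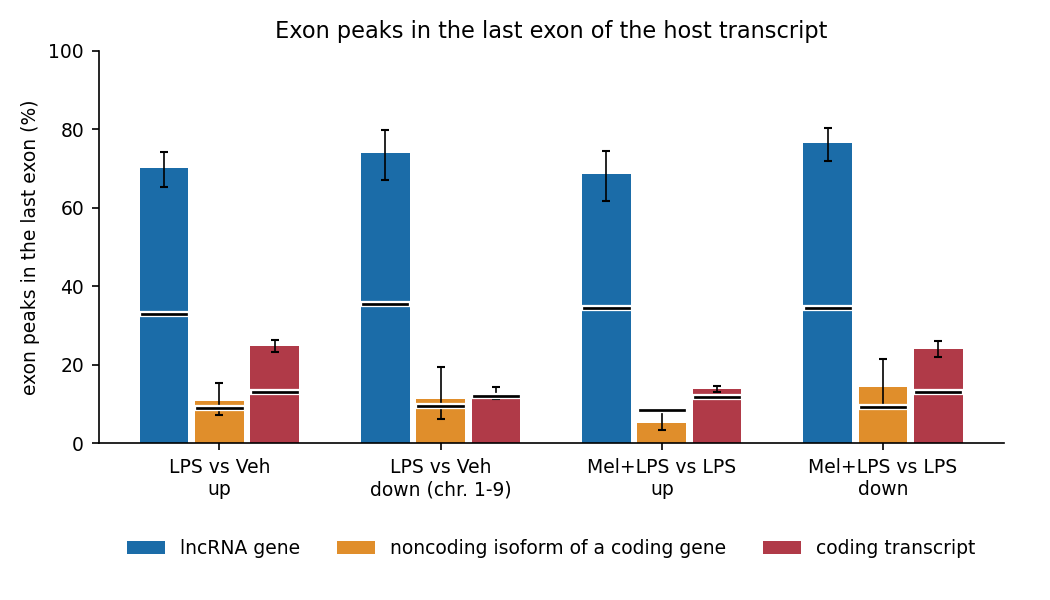
Share of exon peaks in the last exon (percent, Wilson 95% intervals) by list and host class, for transcripts of at least 2 exons. The black bar is the share if the exons of each transcript were hit equally. The lncRNA columns reach 68.5% to 76.5%, above the black bars at 32.9% to 35.5%.

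DRACH was denser in lncRNA exon peaks than in adjacent transcript sequence of the same length. The densities were 28.7, 28.6, 26.8 and 26.6 motifs per 1000 bases in LPS-up, LPS-down, Mel-up and Mel-down peaks. Adjacent sequence held 22.2, 24.5, 22.4 and 21.7, which gives ratios of 1.29, 1.17, 1.20 and 1.23. For coding exon peaks the ratios were 1.12, 1.08, 1.13 and 1.10. The peaks have no strand. With the motif averaged over both strands, on a transcript of any gene, the ratios were 1.11, 1.08, 1.09 and 1.08 for lncRNA exon peaks. Those for coding exon peaks were 1.02, 1.04, 1.06 and 1.02. For the values on the host strand, 32.1% to 43.1% of lncRNA exon peaks could be placed on a GENCODE transcript of the host. The rest were not counted. At least 97.5% of the placed lncRNA peaks held DRACH, beside 96.8% to 98.0% of the placed coding exon peaks.

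The highest LPS-up and Mel-down scores lay mostly in lncRNAs with systematic names, and the highest LPS-down and Mel-up scores lay in such lncRNAs, a pseudogene and coding genes, which are hosts through a noncoding isoform. In LPS-up they were Gm40578 (39.3, exon), Gm33906 (21.2, intron), Gm30483 (21.0, exon) and Gm29683 (20.1, intron), followed by an intron of Pole4, a DNA polymerase epsilon subunit gene (18.8), and Cd55os-2 on a scaffold (17.3). In LPS-down they were an intron of Prom1 (21.5), the pseudogene Gm7931 (19.4), exon 1 of Atoh8 (17.3), Gm52620 (15.5), exon 14 of Tpp2 (15.2) and Gm35761 (14.5). Prom1 encodes the membrane glycoprotein CD133, Atoh8 a basic helix-loop-helix factor and Tpp2 a tripeptidyl peptidase. The Gm35761 peak also lay on an exon of the coding gene Guca2b.

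In Mel-up the highest scores were those of exon 1 of Abr (17.7), an intron of Henmt1 (17.5), exon 7 of Brd2 (17.3), Gm42252 (17.2), A630034I12Rik (16.3) and an intron of Myo9b (16.1). Henmt1 encodes a small RNA methyltransferase and Brd2 a bromodomain protein. The Henmt1 peak also lay within the coding gene Fam102b, so its gene of origin cannot be told apart. In Mel-down they were Gm33906 (21.5), AI450353-3 on a scaffold (19.8), the Pole4 intron, Gm46116 (16.6), Gm42247 (16.5) and Gm34655 (14.7). Of the first 6 Mel-up peaks, 4 lay in noncoding isoforms of coding genes, and 1 of the first 6 Mel-down peaks did. Such isoforms held 50.5% of all noncoding Mel-up peaks and 20.6% of all noncoding Mel-down peaks.

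Some sites had a peak in both comparisons, and their scores are given side by side. The Gm33906 intron had 21.2 in LPS-up and 21.5 in Mel-down over the same 244 bases (chr14:123083220-123083463). The Pole4 intron, with 18.8 in LPS-up, was also a Mel-down peak over nearly the same bases. The Gm42247 intron had 16.3 in LPS-up and 16.5 in Mel-down, and Gm30075 had 13.1 and 13.6 over the sequence shown above. Mir133a-2, a microRNA gene known from muscle, had 12.4 in LPS-up (chr2:180398470-180398662) and 13.2 in Mel-down. In the opposite direction Gm7931 had 19.4 in LPS-down and 13.2 in Mel-up, and Gm52620 had 15.5 and 12.9. Gm39250, whose intron peak lies within the coding gene Il34, had 8.13 and 10.2, Gm34999 had 13.1 and 8.10, and Atoh8 had 17.3 and 8.04. Gm7931 is a pseudogene, and reads it shares with a near-identical gene cannot be told apart.

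The hosts with the most peaks were Airn and Kcnq1ot1. Of the 1747 hosts, 870 (49.8%) had 1 peak and 108 had at least 5. Of those 108, 58 were lncRNA genes and 40 were coding genes with a noncoding isoform, beside 1120 and 493 of all hosts. Airn had 42 peaks (20 LPS-up, 5 Mel-up and 17 Mel-down), of which 18 lay on a scaffold copy, Airn-2, which may share reads with chromosome 17. Its highest score was 9.56, in LPS-up on the scaffold. On chromosome 17 its LPS-up scores ran from 1.14 to 7.89 and its Mel-down scores from 1.40 to 5.30, and all but 1 of these peaks were intronic. Airn is transcribed through the Igf2r locus, and LPS-down peaks were not analysed on its chromosome.

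Kcnq1ot1, a single-exon lncRNA of 83.4 kb, had 21 peaks with mixed directions: 8 LPS-up, 5 LPS-down, 1 Mel-up and 7 Mel-down. All lay 38.8 to 78.9 kb from its start. The highest were an LPS-up peak at 54.3 kb (8.13) and a Mel-down peak at 78.5 kb (8.11). The sequence shown above, at 53.9 kb, had 4.07 in LPS-up and 4.14 in Mel-down. Gm29683 had 14 peaks (4, 5, 1 and 4 in LPS-up, LPS-down, Mel-up and Mel-down) and Gm52620 also 14 (3, 4, 5 and 2). In Gm29683 the intron peak at chr7:70275767-70275966 had 20.1 in LPS-up and 3.87 in Mel-down. Gm8995, annotated as a miscellaneous RNA, had 12 peaks. A site in its exon 4 had 6.65 in LPS-down and 15.6 in Mel-up.

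E130008D07Rik, on chromosome 17, had 6 LPS-up peaks (15.2, 14.3, 13.0, 7.76, 5.76 and 2.73) and 5 Mel-down peaks (7.96, 2.51, 2.45, 1.44 and 1.34). Morrbid, a lncRNA known to control the lifespan of short-lived myeloid cells through Bcl2l11, had 8 LPS-down peaks and 1 LPS-up peak and none in the other comparison. Its LPS-down scores were 13.8, 6.43, 5.36, 4.61, 3.99, 3.63, 2.33 and 1.42, and the LPS-up score was 3.78. The 13.8 peak lay in exon 3 of 3 of a transcript on chromosome 2 and is the first sequence shown above. No level of Morrbid RNA and no count of myeloid cells is in the lists.

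**Figure D5:**
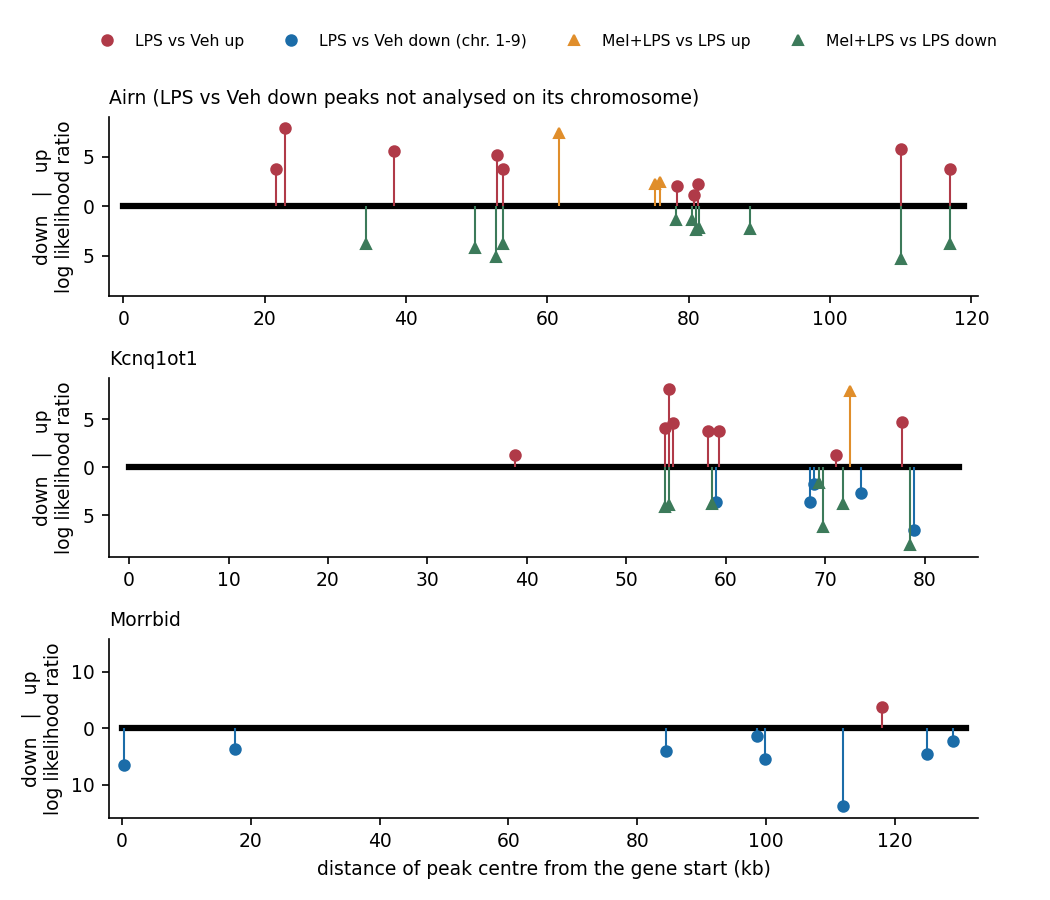
Peaks of Airn (chromosome 17 only), Kcnq1ot1 and Morrbid by distance from the start of the gene (kb), with up peaks above and down peaks below the line and the height giving the log10 likelihood ratio. Morrbid has 8 LPS-down peaks and 1 LPS-up peak, and Kcnq1ot1 peaks lie between 38.8 and 78.9 kb.

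Gene lists of named lncRNAs were drawn up with earlier results of these data known, and are described by counts. Over the 4 peak lists together the median score of all noncoding peaks was 3.76 and that of all peaks 2.53. Of 12 nuclear and X inactivation lncRNAs, 10 held 50 peaks (22 LPS-up, 5 LPS-down, 8 Mel-up and 15 Mel-down), with a median score of 2.71. Kcnq1ot1 gave 21 of them. Of 13 imprinted lncRNA genes 6 held 71 peaks (31, 5, 8 and 27), with a median of 3.63, and Airn and Kcnq1ot1 gave all but 8 of them. Of 42 small RNA host genes 12 held 26 peaks (9, 3, 5 and 9), with a median of 2.02. Of 19 inflammation or immune lncRNAs 9 held 26 peaks (5, 11, 4 and 6), with a median of 3.02. Morrbid gave 8 of the 11 LPS-down peaks. Of 24 Hox and developmental antisense lncRNAs 10 held 21 peaks (8, 5, 2 and 6), with a median of 3.63. Kcnq1ot1, Snhg14, Rian, Malat1, Neat1 and Mir22hg stand in more than 1 list.

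Of the 50 peaks of nuclear and X inactivation lncRNAs 7 scored at least 6, of which Kcnq1ot1 held 5, Miat 1 and Pvt1 1. Most of these genes with peaks lie outside chromosomes 1 to 9, where LPS-down peaks were not analysed. Malat1 had 2 Mel-down peaks (1.59 and 3.16). Neat1 had 2 LPS-up peaks (1.08 and 1.33) and 1 Mel-down peak (1.52), below the lower quartiles of those lists. Xist had 3 LPS-up peaks (1.31, 1.54 and 1.54) and 2 Mel-up peaks (2.18 and 2.77), and Tsix, its antisense repressor, had 1 Mel-up peak (1.54). Xist and Tsix overlap in part, and unstranded peaks cannot separate them. Firre, which anchors the inactive X chromosome, had 2 LPS-up peaks (1.50 and 1.56) and 2 Mel-up peaks (1.28 and 1.17). Tug1 had 2 LPS-up peaks (1.31 and 1.42), 1 Mel-down peak (1.40) and 1 Mel-up peak (1.28), and Norad, which binds Pumilio proteins, had 1 LPS-up peak (1.22). Higher scores than these were found in Kcnq1ot1, described above, in Miat (7.46 in Mel-up and 2.63 in LPS-up, both in its last exon) and in introns of Pvt1, the neighbour of Myc. Pvt1 had 13.0, 5.57, 5.44 and 3.85 in Mel-down and 3.78, 3.78 and 1.19 in LPS-up.

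Among imprinted genes outside Airn and Kcnq1ot1, Meg3 had 1 Mel-down peak (2.59), Peg13 1 Mel-up peak (1.74) and Rian 1 LPS-up peak (1.72). Snhg14, the long antisense transcript of Ube3a and host of many snoRNAs, had 2 LPS-up (3.78 and 3.80), 2 Mel-down (1.25 and 5.01) and 1 Mel-up peak (2.05). Of the other small RNA hosts, Snhg11 had 10.2 in LPS-down and 3.09 at the overlapping Mel-up site, with a further Mel-up peak of 7.41, all in its exon 5. Gas5, a growth arrest transcript, had 1.47 in LPS-up and 1.32 in Mel-down at overlapping sites of exon 4. Mir100hg had 2.59 and 1.78 in LPS-up, 1.99 and 1.28 in Mel-down and 3.63 in LPS-down. Carmn, a smooth muscle lncRNA, had 1.16 in LPS-up and 2.29 in Mel-down, and Snhg1 had 3.19 in Mel-up.

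Of the inflammation and immune lncRNAs, AW112010, which is induced by interferon and LPS in myeloid cells, had 1 LPS-up peak (4.18). Oip5os1 (Cyrano) had 1.32 and 1.53 in LPS-down and 2.55 and 2.88 in Mel-up at overlapping sites. Lncpint had 1.90 in LPS-down, 7.20 in Mel-down and 5.42 in Mel-up at different introns or sites, Mirt1 had 7.27 in Mel-up and Ptgs2os2, antisense to the prostaglandin synthase gene Ptgs2, had 3.99 in Mel-down. Mir22hg had 2.16 in LPS-up and 1.41 in Mel-down. Of the developmental antisense lncRNAs, Hotair, which lies in the HoxC cluster, had 5.21 in LPS-up and 4.03 in Mel-down in its last exon. Wt1os, antisense to the tumour suppressor Wt1, had 4 LPS-up peaks (8.15, 6.25, 4.45 and 1.10) and 2 LPS-down peaks (9.62 and 5.95) at other positions. Emx2os had 9.75 in Mel-down and 11.2 in Mel-up, at separate positions of its first intron. Hand2os1, beside the uterine factor gene Hand2, had 3.11 in LPS-up and 2.47 in Mel-down at overlapping positions of an intron, with exon peaks of 1.35 in Mel-down and 2.64 in Mel-up. Hoxa11os had 1.49 in Mel-down, Hoxaas2 3.27 and Hoxb5os 3.56 in LPS-up. No direction of a list was tested.

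Genes of short RNAs had few peaks besides those of Mir133a-2. The snRNA gene LOC115489840 had 3.78 in LPS-up and 3.85 in Mel-down, which are the repeated scores of those lists. The guide RNA gene Gm26413 had 1.40 in LPS-up and 1.59 in Mel-down, the snoRNA gene Gm22480 had 1.24 in Mel-down, and the ribosomal RNA gene Rn28s1, on a scaffold, had 1.41 in Mel-up. Peaks of noncoding transcripts were 100 to 1469 bases wide and had a median width of 172 bases.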

How the data were processed

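m6A-seq was done on input and immunoprecipitated RNA of 18 uterine libraries, fragmented to about 100 nucleotides. Per the labels and methods, the authors trimmed reads with Fastp (0.12.3), aligned them with STAR (2.5.2a) to mm10 and used exomePeak2 (4.2) for peak calling, MACS2 (3.4) for the differences between treatments and ChIPseeker (1.22.1) for annotation. The authors' deposited tables give 1 score per peak, the log10 likelihood ratio. How replicates were combined is not given in the sources used here. The LPS-down table was used on chromosomes 1 to 9 (6259 of 6414 complete lines). Host classes were taken from RefSeq by transcript identifier, with all 3499 matched, and sequences from GENCODE M21 transcripts. Counts and shares were computed with pandas 2.3.3, numpy 2.4.6, scipy 1.17.1 and matplotlib 3.10.9 under Python 3.11.15 and tested on simulated data. Intervals of medians came from binomial order statistics. Members and lists were chosen with earlier results of these data known. Genes are named as the 6 highest scores per table, the 6 hosts with most peaks, the 5 highest pairs per direction and the list genes. Morrbid is a list gene under a former name, and not every list gene is given with values. Alternatives were stricter scores, 1 peak per host, exons alone, predicted noncoding transcripts left out, isoforms left out, other motifs and, chosen after seeing the data, repeated scores or scaffolds left out.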

Additional observations from a re-analysis of the deposited data

How the results depend on the processing

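Of 132 alternative values, 51 lay within the 95% interval of the value as reported and 81 outside it, which are given here. Each choice changes which peaks, hosts or letters are counted, so the tally does not measure robustness. Leaving out predicted noncoding transcripts or isoforms can only lower the noncoding share, and GGAC is another motif than DRACH. At scores of at least 3, the noncoding share of exon and intron peaks was 24.0% (LPS-up), 20.2% (LPS-down), 12.5% (Mel-up) and 26.9% (Mel-down). At scores of at least 6, the noncoding share of exon and intron peaks was 23.0% (LPS-up), 17.1% (LPS-down), 15.0% (Mel-up) and 25.6% (Mel-down). With 1 peak per host, the noncoding share of exon and intron peaks was 19.8% (LPS-up), 16.9% (LPS-down) and 10.9% (Mel-up). In exons alone, the noncoding share of exon and intron peaks was 17.4% (LPS-up), 8.61% (Mel-up) and 26.2% (Mel-down). With predicted noncoding transcripts left out and predicted coding ones kept, the noncoding share was 8.58% (LPS-up), 5.98% (LPS-down), 3.04% (Mel-up) and 12.0% (Mel-down). Without isoforms of coding genes, the noncoding share of exon and intron peaks was 14.1% (LPS-up), 11.2% (LPS-down), 4.82% (Mel-up) and 20.1% (Mel-down). Without the 3 most frequent scores (chosen after seeing the data), the noncoding share of exon and intron peaks was 17.5% (LPS-up) and 13.1% (LPS-down). The up share of noncoding peaks in Mel+LPS against LPS (42.6%) was 34.5% at scores of at least 3, 46.4% at scores of at least 6, 49.4% in exons alone, 34.4% with curated transcripts alone, 31.6% without isoforms of coding genes, 47.6% without the 3 most frequent scores. That of coding transcripts (69.6%) was 57.6% at scores of at least 3, 62.7% at scores of at least 6, 64.4% with 1 peak per host, 78.7% in exons alone, 73.7% without the 3 most frequent scores. In LPS against Veh at scores of at least 6 the up share was 63.1% for noncoding and 51.4% for coding transcripts. The last-exon share of exon peaks in all noncoding transcripts (343 of 686 in LPS-up, 53.9% in LPS-down, 30.3% in Mel-up and 62.8% in Mel-down) moved as follows. At scores of at least 3 it was 56.7% (LPS-up), 65.1% (LPS-down) and 40.8% (Mel-up). In transcripts of at least 3 exons it was 42.8% (LPS-up), 44.4% (LPS-down), 23.2% (Mel-up) and 54.8% (Mel-down). With 1 peak per host it was 54.3% (LPS-up), 60.4% (LPS-down) and 34.7% (Mel-up). With curated transcripts alone it was 65.3% (LPS-up), 67.8% (LPS-down), 51.7% (Mel-up) and 77.3% (Mel-down). Without isoforms of coding genes (chosen after seeing the data) it was 70.2% (LPS-up), 73.8% (LPS-down), 65.6% (Mel-up) and 77.1% (Mel-down). The median score of noncoding peaks was 3.78 in LPS-up, 3.63 in LPS-down, 2.71 in Mel-up and 3.85 in Mel-down. It became 3.37 (LPS-up) and 3.29 (Mel-down) in exons alone, 3.36 (LPS-up), 3.16 (LPS-down) and 3.20 (Mel-down) without the 3 most frequent scores, 3.24 (Mel-up) with 1 peak per host, 3.45 (Mel-up) without isoforms of coding genes. The median score of coding peaks was 2.67 in LPS-up, 2.58 in LPS-down, 2.16 in Mel-up and 3.64 in Mel-down. It became 3.4 (LPS-up), 3.0 (LPS-down) and 2.52 (Mel-up) with 1 peak per host, 2.12 (LPS-up), 2.06 (LPS-down), 2.08 (Mel-up) and 2.08 (Mel-down) in exons alone, 2.27 (LPS-up), 2.22 (LPS-down), 2.12 (Mel-up) and 2.48 (Mel-down) without the 3 most frequent scores. DRACH numbered 27.1, 26.3, 25.5 and 26.0 per 1000 bases in exon peaks of all noncoding transcripts. GGAC alone, the shorter form of the motif, numbered 5.47, 4.81, 5.50 and 4.95. Averaged over both strands, on transcripts of any gene, DRACH numbered 21.4, 21.5, 21.0 and 21.4. Adjacent sequence then held 19.7, 20.9, 19.3 and 19.8. In each alternative that gives these values noncoding transcripts held a larger share of Mel-down than of Mel-up peaks, and a smaller up share than coding transcripts in Mel+LPS against LPS. No paired analysis was possible because the tables hold 1 score per peak and no value per replicate, and no replicate could be left out for the same reason. Depth per library is unknown, so scores cannot be related to read number. The repeated scores, the missing strand and the LPS-down chromosomes limit the counts, and sites present in several copies share reads.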
